A study of Mus musculus with 7 samples.

Results

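The genes described here are 10 mouse genes of the elastic fibre and of the lysyl oxidase family: the microfibril genes Mfap2, Mfap4, Mfap5, Fbn1 and Fbn2, the elastin gene Eln, and the lysyl oxidase genes Lox, Loxl1, Loxl2 and Loxl3. They were chosen by name, as every probe whose gene name or accession belongs to 1 of them. All 10 were found, on 13 probes, among 27583 genes and unnamed probes on the array, and all 10 were among the 19135 that were tested. Fbn1, Loxl2 and Mfap2 had 2 probes each, and the brighter probe over all arrays stands for the gene below unless the other is named. RNA was hybridised to 7 Agilent 1-colour arrays: 3 of induced hepatocyte-like cells (iHep), which per the labels were derived from mouse embryonic fibroblasts (MEF) and are called 4α1, 4α2 and 4α3, with 1 array each; 1 of hepatocytes from the livers of adult mice; and 3 of MEF, prepared individually from embryos at 13.5 days post coitum. All cells came from C57BL/6 mice. The study is known to have made iHep cells by adding Hnf4a with Foxa1, Foxa2 or Foxa3 to fibroblasts, but the labels do not say what the last digit of a type stands for, nor whether the iHep cells came from the same MEF preparations as those on the arrays.

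Elastic fibres give skin, lung and artery their recoil. They are built on a scaffold of microfibrils, which are polymers of fibrillins decorated by microfibril-associated proteins, and tropoelastin, the soluble product of Eln, is laid down on that scaffold. Lysyl oxidases are copper-dependent enzymes that oxidise lysine side chains of tropoelastin and of fibrillar collagens, after which the chains join into an insoluble network. Fibroblasts and smooth muscle cells are the usual producers of these proteins, and in liver the mesenchymal cells rather than the hepatocytes are their main source.

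Between 60.2% and 68.7% of probes were well above background on each array. MEF 2 and MEF 3 lay on 1 slide, and the spread between them was 0.53 to 0.88 times that of spots repeated within an array, against 3.72 to 4.20 times for MEF 1 and MEF 2. They thus differed by less than the measurement noise and were averaged and counted as 1 sample. Groups were therefore iHep with n = 3, hepatocyte with n = 1 and MEF with n = 2. The 3 iHep arrays shared a slide with MEF 1, and the hepatocyte array was on a slide of its own, so slide and group cannot be told apart for it. The iHep spread is a spread between types, the lone hepatocyte array is assumed to vary like the other groups, and no p-value here speaks for more than the samples at hand. Levels are in log2 units relative to the array's 75th percentile, so a probe at 0 is as bright as that percentile. Levels of different probes are not comparable with each other, and only changes are compared between genes. All changes are from limma and carry their standard error, with adjusted p-values over the 19135 genes.

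Cell type markers were checked against the labels. All 7 hepatocyte markers (Alb, Ttr, Apoa1, Ahsg, Fgb, Serpina1d and Hnf4a) were well above background on every iHep array and on the hepatocyte array, whereas on the MEF arrays Serpina1d alone was. Their summed signal, in multiples of the array's 75th percentile, was 270 to 1190 on the iHep arrays and 3860 on the hepatocyte array, against 0.0446 to 0.0538 on the MEF arrays. Hnf4a is also a factor that was added to make iHep cells, so its signal there may include the added gene. Which copy its probe read was not tested. All 8 fibroblast markers (Col1a1, Col1a2, Thy1, Pdgfra, Pdgfrb, Vim, Dcn and Lum) were still well above background on every iHep array, at a summed 98.5 to 201 against 972 to 986 on the MEF arrays.

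In iHep against MEF, 9 of the 10 genes fell and none rose, where 13.2% of all tested genes were called lower and 10.1% higher. The median log2 change of the 10 was -4.37, beside -0.04 over all tested genes. Mfap4 fell most by fitted change, by 11.05 ± 0.50 on the log2 scale, and Loxl2, at -1.47 ± 0.63, was the member that did not pass the test. On all 3 iHep arrays each of the 10 was below every MEF array, a separation shown by 31.3% of tested genes. Mesenchymal markers moved the same way: 7 of 8 fibroblast markers and 7 of 7 smooth muscle markers (Acta2, Tagln, Myh11, Cnn1, Des, Smtn and Lmod1) were called lower in iHep. The smooth muscle markers summed to 30.9 to 104 on the iHep arrays, against 527 to 698 on the MEF arrays. Of other cell types, 4 of 6 macrophage markers were called lower in iHep (summed 0.196 to 0.407 on the iHep arrays, against 4.03 to 6.71 on the MEF arrays), as were 3 of 6 endothelial markers (0.106 to 0.11 in iHep, against 1.88 to 3.02 in MEF). The part of these markers in the result was not tested, and in such bulk samples fewer cells of a type and less RNA per cell cannot be told apart.

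**Figure D1:**
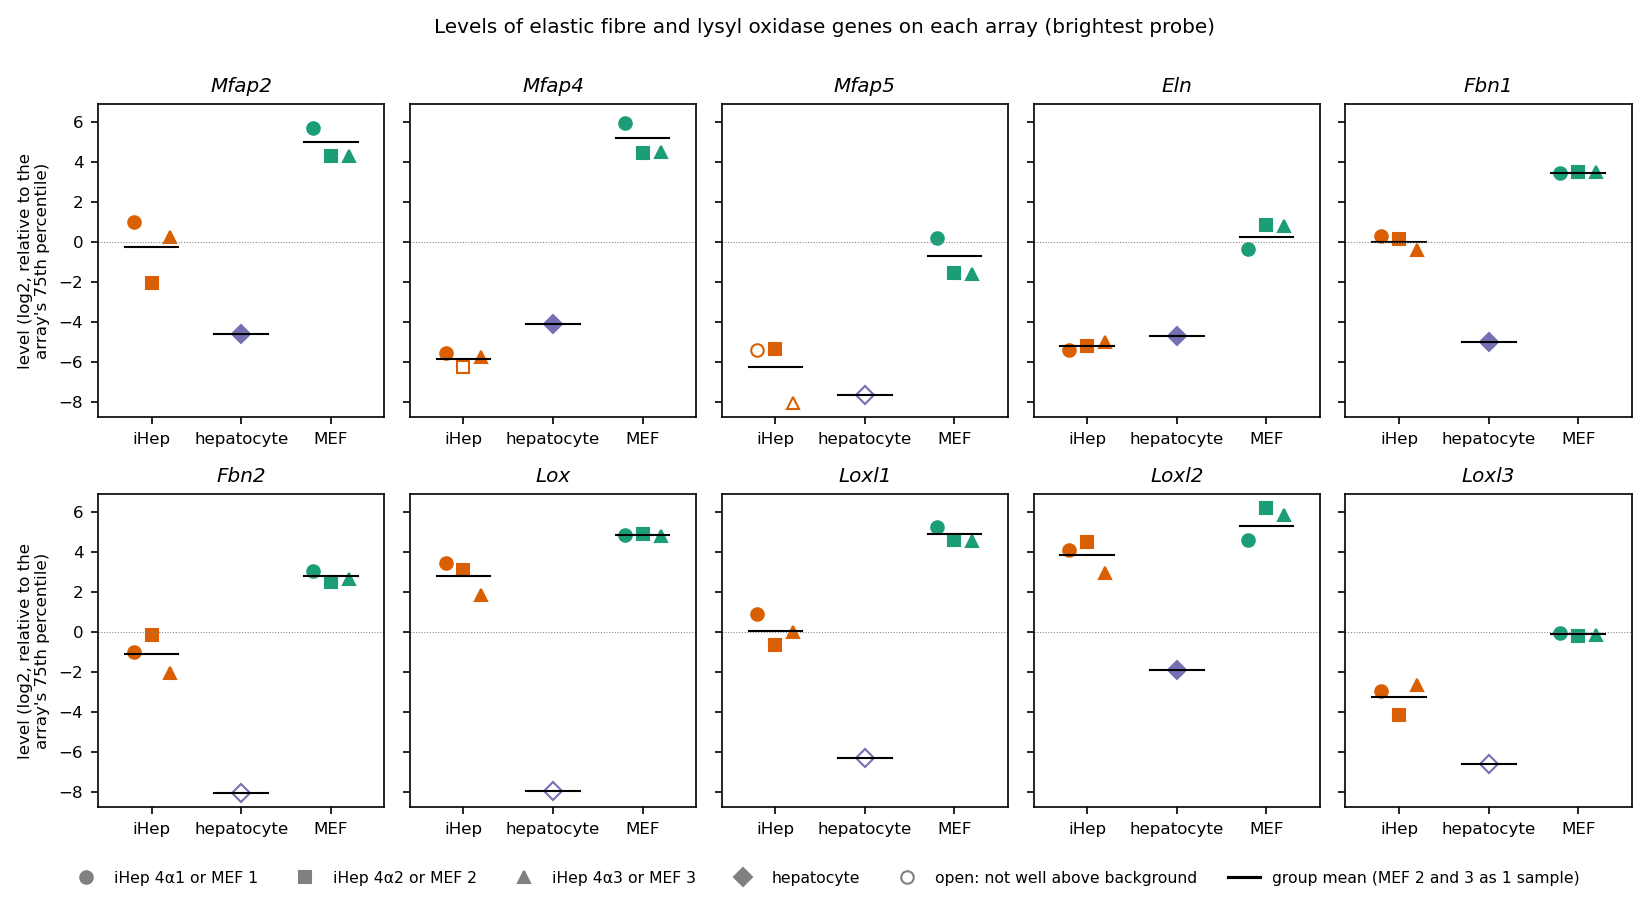
Levels of the 10 genes on each array (vertical axis, log2 relative to the array's 75th percentile), with the 3 iHep arrays on the left, the hepatocyte array in the middle and the 3 MEF arrays on the right of each panel; open symbols were not well above background and lines are group means. In every panel all iHep points lie below all MEF points, and Lox and Loxl2 keep iHep levels between 1.84 and 4.46.

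Among the microfibril genes, the fibrillins had the smallest fitted falls, though their 95% intervals (-4.14 to -2.75 for Fbn1 and -5.42 to -2.38 for Fbn2) overlap those of Mfap2 and Mfap5. Fbn1 encodes fibrillin-1, the main structural protein of microfibrils, and its brighter probe maps to chromosome 2, minus strand, between 124992432 and 124992491 (mm8, the build in the array files). Its level was 0.30, 0.15 and -0.41 in iHep types 4α1, 4α2 and 4α3, against 3.43, 3.48 and 3.50 in MEF 1, 2 and 3. The groups are tight and far apart, and the gene fell by 3.44 ± 0.27 on the log2 scale (10.87-fold lower, adjusted p = 0.00223). The second Fbn1 probe, on the same chromosome at 124992959 to 124993018, gave a like value (-3.63 ± 0.33, adjusted p = 0.00305). Fbn2 encodes fibrillin-2, the fibrillin made mostly before birth, and its probe is on chromosome 18 at 58137687 to 58137746. Its level was -1.03, -0.17 and -2.08 in the 3 iHep types, against 3.06, 2.50 and 2.62 on the MEF arrays. The iHep types were spread over 1.91 on the log2 scale while MEF arrays stayed close, and Fbn2 fell by 3.90 ± 0.59 (14.94-fold lower, adjusted p = 0.0121).

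The 3 microfibril-associated genes had larger fitted falls. Mfap4 encodes a fibrinogen-related protein that binds tropoelastin and microfibrils, and its probe is on chromosome 11 at 61304789 to 61304848. Its level was -5.55, -6.27 and -5.77 in the iHep types, against 5.92, 4.43 and 4.47 on the MEF arrays. Type 4α2 was not well above background, the other types were, and all MEF arrays lay far above them. Processed signals of Mfap4 were only 15.24, 10.99 and 14.38 in the iHep types, near background. The size of its fall is to be read with that limit. The gene fell by 11.05 ± 0.50 (2115-fold lower, adjusted p = 0.000605). Its 95% interval for the log2 change, -12.34 to -9.76, does not overlap that of any other member. With normexp background correction, which adds an offset of 50 to the signals, the change was -8.57. Mfap2 encodes MAGP-1, a small glycoprotein bound along fibrillin, with a probe on chromosome 4 at 140287975 to 140288034. Its level was 0.99, -2.07 and 0.25 in the iHep types, against 5.66, 4.26 and 4.28 on the MEF arrays. Type 4α2 lay well under the other types, and the gene fell by 5.24 ± 1.02 (37.9-fold lower, adjusted p = 0.0234). Without type 4α2 the change was -4.35, and without type 4α1 it was -5.88. The dimmer Mfap2 probe, at 140286266 to 140286325, fell by 4.31 ± 0.43 (adjusted p = 0.0038). Mfap5 encodes MAGP-2, the other glycoprotein of this kind, with a probe on chromosome 6 at 122494539 to 122494598. Its level was -5.40, -5.33 and -8.05 in the iHep types, against 0.21, -1.57 and -1.61 on the MEF arrays. It was well above background on 1 of 3 iHep arrays only, type 4α2, and fell by 5.57 ± 1.05 in the fit (adjusted p = 0.0215). With 2 iHep arrays at background this size is uncertain: the change was -2.74 with normexp and -4.68 without type 4α3.

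Promoter windows from RefSeq (GRCm38.p6, 250 bases before to 50 after the start) were at hand for 2 of the 10 genes, Fbn1 and Mfap2, and are shown because both genes fell in iHep. Capitals mark the GC box, GGGCGG, searched on both strands.
Fbn1, chr2:125506389-125506688, minus strand: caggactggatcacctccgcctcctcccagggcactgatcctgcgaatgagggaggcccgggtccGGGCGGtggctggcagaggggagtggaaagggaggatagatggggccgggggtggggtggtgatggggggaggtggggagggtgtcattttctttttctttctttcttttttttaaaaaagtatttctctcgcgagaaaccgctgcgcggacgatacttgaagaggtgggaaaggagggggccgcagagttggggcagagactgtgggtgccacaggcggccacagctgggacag
Mfap2, chr4:141010431-141010730, plus strand: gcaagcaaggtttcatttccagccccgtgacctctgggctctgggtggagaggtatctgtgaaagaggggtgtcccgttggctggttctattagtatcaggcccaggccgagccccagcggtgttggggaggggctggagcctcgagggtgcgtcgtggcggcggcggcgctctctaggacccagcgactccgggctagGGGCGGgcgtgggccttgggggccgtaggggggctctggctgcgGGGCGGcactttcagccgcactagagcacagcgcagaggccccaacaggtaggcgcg
The GC box was found 1 time in the Fbn1 window and 2 times in this Mfap2 window, and 35.7% of all 32851 windows hold it. Neither window held the TATA box TATAAA (13.6% of all windows), the CCAAT box CCAAT (37.4%), the AP-1 site TGANTCA (7.8%) or the TEAD site GGAATG (14.7%). The E-box CANNTG (72.3% of all windows) was found 1 time in the Fbn1 window and not in this Mfap2 window. A second Mfap2 window, at 141010174 to 141010473, held no GC box, 1 CCAAT box, 1 TEAD site and 1 E-box. None of the motifs named here overlapped another in the Fbn1 window. Such matches describe the letters only.

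Elastin was low in every iHep type. The Eln probe lies on chromosome 5 at 134987886 to 134987945, minus strand, and its level was -5.42, -5.18 and -5.00 in the iHep types, against -0.38, 0.86 and 0.78 on the MEF arrays. The 3 iHep types sat within 0.43 of each other, the narrowest iHep spread of the 10 genes, and all were well above background. Their processed signals for Eln were only 16.62, 23.37 and 24.47, near background, against 617.2 to 2697 on the MEF arrays. The narrow spread and the size of the fall are to be read with that limit. Eln fell by 5.42 ± 0.40 (42.82-fold lower, adjusted p = 0.0019), and the change was -3.44 with normexp (adjusted p = 0.00169).

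Of the lysyl oxidases, Loxl1, Loxl3 and Lox fell and Loxl2 did not pass the test. Loxl1, an enzyme needed for the renewal of elastic fibres in adult mice, has its probe on chromosome 9 at 58088900 to 58088959. Its level was 0.87, -0.66 and -0.03 in the iHep types, against 5.23, 4.57 and 4.55 on the MEF arrays, and it fell by 4.84 ± 0.51 (28.59-fold lower, adjusted p = 0.00465). Loxl3, whose loss in mice disturbs the palate and spine, has a probe on chromosome 6 at 83017907 to 83017966. Its level was -2.98, -4.17 and -2.65 in the iHep types, against -0.07, -0.22 and -0.16 on the MEF arrays, and it fell by 3.13 ± 0.49 (8.779-fold lower, adjusted p = 0.013). With normexp the change of Loxl3 was -2.37. Both genes were lowest in type 4α2 and neither overlapped between the groups.

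Lox encodes the founding lysyl oxidase, which cross-links elastin and fibrillar collagen, and its probe is on chromosome 18 at 52641882 to 52641941. Its level was 3.45, 3.08 and 1.84 in the iHep types, against 4.82, 4.88 and 4.79 on the MEF arrays. It fell by 2.03 ± 0.51 (4.094-fold lower), just inside the threshold (adjusted p = 0.0472), and the call was lost after quantile normalization (adjusted p = 0.0546), in the authors' deposited table (adjusted p = 0.0552) and with dim probes kept (adjusted p = 0.064). It was also lost without type 4α1 (adjusted p = 0.0505) or type 4α2 (adjusted p = 0.0854). Loxl2 encodes an enzyme that acts on collagen IV of basement membranes as well as on other matrix proteins, and its brighter probe is on chromosome 14 at 68430527 to 68430586. Its level was 4.06, 4.46 and 2.96 in the iHep types, against 4.58, 6.17 and 5.84 on the MEF arrays. Type 4α2 and MEF 1 differed by only 0.12 on the log2 scale, and the 95% interval of the change ran from -3.08 to 0.15 (adjusted p = 0.159). The other Loxl2 probe, at 68427414 to 68427473, gave -1.56 ± 0.66 (adjusted p = 0.151).

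**Figure D2:**
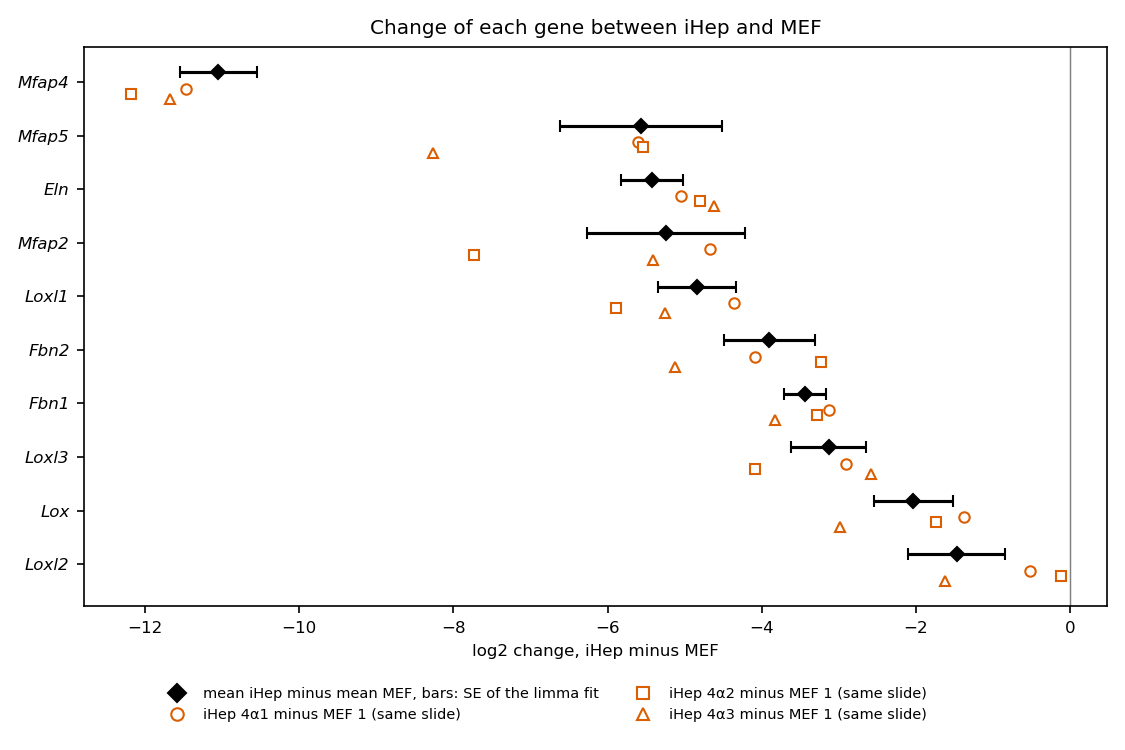
Log2 change, iHep minus MEF, for each gene (horizontal axis): filled diamonds are group means with the SE of the fit, open symbols are each iHep type minus MEF 1 on the same slide. The fitted changes run from -11.05 for Mfap4 to -1.47 for Loxl2, and the open symbols of Loxl2 reach -0.12.

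The MEF samples differed among themselves for some of the genes. MEF 1 lay on another slide than MEF 2 and MEF 3, so slide and sample cannot be told apart in these differences. Mfap2, Mfap4 and Mfap5 were higher on MEF 1 than in the mean of MEF 2 and MEF 3, by 1.39, 1.47 and 1.80 on the log2 scale. Eln and Loxl2 went the other way, at -1.20 and -1.42 for MEF 1 minus that mean. The other 5 genes stayed within 1. Within the slide that held MEF 1 and the iHep arrays, where 4.79% of tested genes were called lower, 4 members were: Mfap4 (-11.78 ± 0.38, adjusted p = 0.00788), Eln (-4.82 ± 0.29, adjusted p = 0.00899), Fbn1 (-3.41 ± 0.38, adjusted p = 0.0255) and Loxl1 (-5.17 ± 0.68, adjusted p = 0.0331). The same 4 were called without MEF 1, against a background of 5.01%, with Mfap4 at -10.31 and Eln at -6.02. Mfap2 (-4.55, adjusted p = 0.136), Mfap5 (-4.67, adjusted p = 0.125) and Loxl2 (-2.18, adjusted p = 0.149) were not called without MEF 1. On the slide with MEF 1, Mfap2 (-5.94 ± 1.35), Mfap5 (-6.47 ± 1.31), Fbn2 (-4.15 ± 0.83), Loxl3 (-3.19 ± 0.70) and Lox (-2.03 ± 0.74) had adjusted p-values of 0.0677 to 0.188, and Loxl2 stood at -0.76 ± 0.69 (adjusted p = 0.539). Both of these fits have 1 MEF sample, which is taken to vary like the iHep arrays. In the fit without MEF 1, all iHep arrays are on a slide other than that of the MEF arrays. Slide and group cannot be told apart there.

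No single iHep type was lowest throughout. Type 4α3 had the lowest level for 5 genes, namely Mfap5, Fbn1, Fbn2, Lox and Loxl2. Type 4α2 had it for Mfap2, Mfap4, Loxl1 and Loxl3, and type 4α1 for Eln alone. With 1 array per type these orders are descriptions and were not tested.

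The adult hepatocyte array was lower than MEF for all 10 genes, where 25.1% of tested genes were called lower. The median change was -8.88, beside 0.14 over all genes. Mfap5, Fbn2, Lox, Loxl1 and Loxl3 were not well above background on it. Against MEF, Loxl1 was at least 1612-fold, Lox at least 1534-fold, Fbn2 at least 378.7-fold, Loxl3 at least 49.3-fold and Mfap5 at least 33.51-fold lower, with adjusted p-values from 0.00032 (Lox) to 0.0123 (Mfap5). The call of Mfap5 was lost without MEF 1 (adjusted p = 0.0526). Such a bound sets the MEF mean against the higher of the probe's own level and the lowest level well above background on the hepatocyte array, and it is the bound rather than the fitted change that is to be read for these 5 genes. The bounds hold for the processed signal: with normexp the fitted change was -7.93 for Loxl1, -8.27 for Lox, -6.26 for Fbn2, -3.01 for Loxl3 and -2.70 for Mfap5, all smaller in size than the bounds. The brighter or single probes of the other 5 genes were well above background in hepatocytes, whereas the second probes of Fbn1 and Loxl2 were not. Mfap2, at -4.61, was 763.7-fold lower than in MEF, Mfap4, at -4.10, 623.3-fold, Fbn1, at -5.01, 354.1-fold, Loxl2, at -1.93, 149.8-fold and Eln, at -4.70, 30.23-fold (adjusted p from 0.000223 for Fbn1 to 0.00413 for Mfap2). The second probes gave other sizes: Mfap2 was 17.83-fold lower (-4.16 ± 0.57, adjusted p = 0.00362), Fbn1 at least 170.6-fold and Loxl2 at least 267.4-fold. Both Mfap2 probes were near background in hepatocytes, with processed signals of 24.92 for the brighter and 26.53 for the dimmer. Signals of Mfap4, Fbn1 and Eln there were also near it, at 35.46, 18.86 and 23.4. With normexp the changes were -7.78 for Mfap2, -7.80 for Mfap4, -6.36 for Fbn1 and -3.09 for Eln. Leaving out MEF 1 gave -8.88 for Mfap2, -8.55 for Mfap4, -7.94 for Loxl2 and -5.52 for Eln. Of the 8 fibroblast markers, 7 were well above background on the hepatocyte array and Thy1 was not. The 8 summed to 12.4 there, against 972 to 986 on the MEF arrays. Most of the hepatocyte sum came from Dcn, at a level of 3.37, while the others lay between -5.55 and -0.34. Markers of other liver cells were on the same array: 6 of 6 endothelial, 6 of 6 macrophage and 5 of 7 stellate cell markers were well above background there, with summed signals of 6.37, 5.84 and 3.26, against 1.88 to 3.02, 4.03 to 6.71 and 0.691 to 1.51 on the MEF arrays. Smooth muscle markers were above background for 6 of 7, all but Cnn1, and summed to 13.8, against 527 to 698 on the MEF arrays. Nearly all of that hepatocyte sum came from Tagln, at a level of 3.75, while the others lay between -7.97 and -3.26. Over all probes, 62.4% were well above background on the hepatocyte array. Of the stellate markers, Gfap and Hand2 were not above background on it. The part of such cells in the hepatocyte levels was not tested.

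Set against the hepatocyte array, iHep cells were higher for 7 of the 10 genes and called lower for none, where 22.1% of tested genes were called higher and 27.1% lower. The same 7 were lower on the hepatocyte array than on each iHep array, as were 38.5% of tested genes. Lox was at 3.45, 3.08 and 1.84 in iHep and at -7.96 in hepatocytes, where it was not well above background, so that it was at least 374.7-fold higher in iHep (adjusted p = 0.000437). Loxl2 was 54.22-fold higher (5.76 ± 0.80, adjusted p = 0.00432), with 2.96 to 4.46 in iHep against -1.93 in hepatocytes. Its other probe, at background in hepatocytes, was at least 90.57-fold higher. Fbn1 was 32.57-fold higher (5.03 ± 0.34, adjusted p = 0.0006), and its other probe at least 13.8-fold. Loxl1 was at least 56.38-fold, Fbn2 at least 25.36-fold and Loxl3 at least 5.615-fold higher in iHep, each being at background in hepatocytes. With normexp the changes were 6.28 for Lox, 3.17 for Loxl1, 3.03 for Fbn1 and 2.56 for Fbn2, and Loxl3 was not called (0.64, adjusted p = 0.198).

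Eln, Mfap4 and Mfap5 did not pass the test between iHep and hepatocyte. The processed signals of Eln were near background in both, at 16.62 to 24.47 in iHep and 23.4 in hepatocytes, where a difference is hard to see. Those of Mfap4 were near background too, at 10.99 to 15.24 in iHep and 35.46 in hepatocytes. Over the alternatives run, the Mfap4 change ranged from -1.92 to -0.77. Eln stood at -5.42 to -5.00 in iHep and -4.70 in hepatocytes (-0.50 ± 0.51, 95% interval -1.81 to 0.81, adjusted p = 0.446). Mfap4 was lower in every iHep type, at -6.27 to -5.55, than in hepatocytes at -4.10 (-1.76 ± 0.63, interval -3.39 to -0.13, adjusted p = 0.0715), and passed the threshold when MEF 1, or MEF 2 and MEF 3, were left out of the fit (adjusted p = 0.0316). Mfap5 was not well above background in hepatocytes and on 2 of 3 iHep arrays, and was not called (1.37 ± 1.32, adjusted p = 0.425). For Mfap2 the 2 probes disagreed: the brighter was 20.15-fold higher in iHep (4.33 ± 1.29, adjusted p = 0.0423, called under 7 of 13 alternatives), whereas the dimmer stood at -4.32, -5.17 and -4.53 in the iHep types and at -4.52 in hepatocytes (-0.15 ± 0.54, adjusted p = 0.833). Processed signals of the dimmer Mfap2 probe were 35.78, 23.63 and 33.92 in iHep and 26.53 in hepatocytes. All lie near background, where that probe can show little difference. The comparisons with iHep and with MEF share the 1 hepatocyte array, and that array's own spread is not measured.

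**Figure D3:**
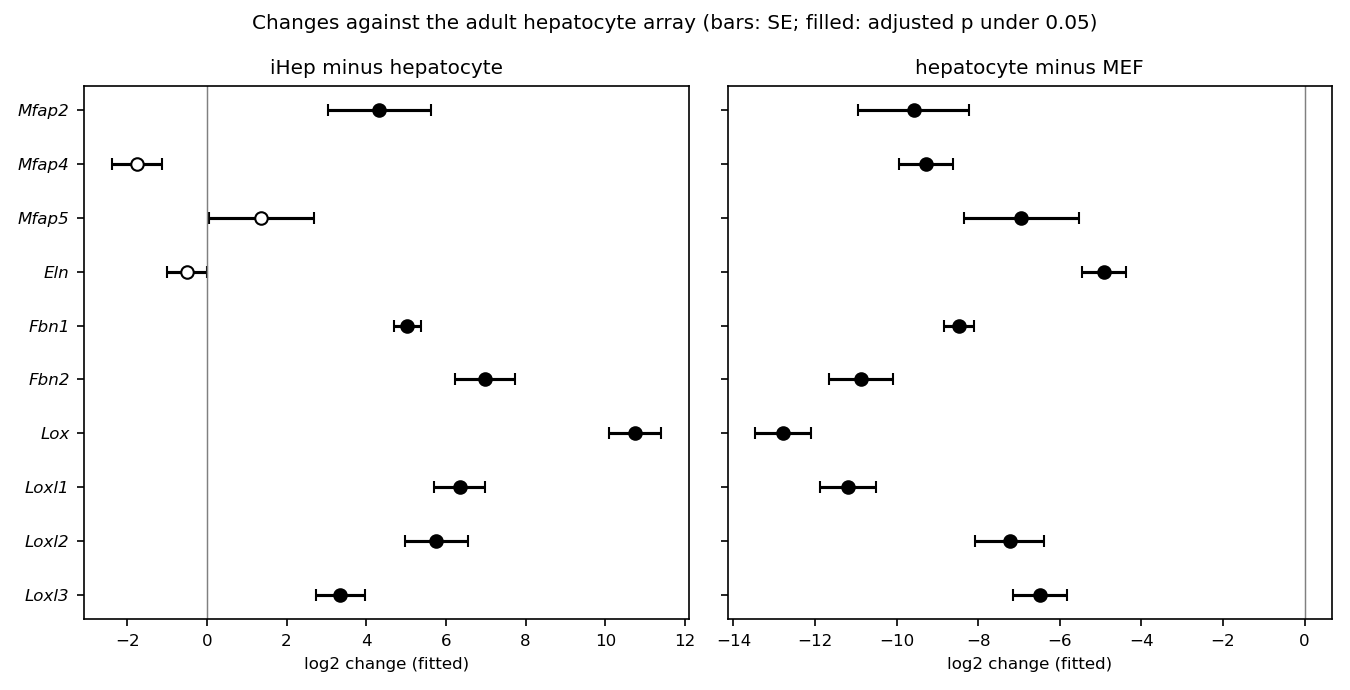
Fitted log2 changes with SE (horizontal axes) of the 10 genes for iHep minus hepatocyte on the left and hepatocyte minus MEF on the right; filled points have an adjusted p under 0.05. Eln, Mfap4 and Mfap5 are the 3 open points on the left, and all 10 points on the right are filled; Mfap5, Fbn2, Lox, Loxl1 and Loxl3 were not well above background in hepatocytes, so their fitted values are not bounds.

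Other genes of elastic fibre assembly did not move as one. Of 26 such genes listed, 25 were on the array and tested, and in iHep against MEF 6 fell, 4 rose and 15 were not called, beside 13.2% of tested genes lower and 10.1% higher; their median change was -1.24. Periostin (Postn), a scaffold protein that brings lysyl oxidase to its activating protease, fell by 7.93 ± 1.60 (adjusted p = 0.0264), although its other probe did not pass (-2.81, adjusted p = 0.141). Fbln5 encodes fibulin-5, which tethers tropoelastin to microfibrils and to cells. Its level was -8.07, -7.21 and -8.42 in the iHep types, not well above background, against -2.71, -2.43 and -2.41 on the MEF arrays, at least 11.22-fold lower (adjusted p = 0.00197). Adamtsl2, a secreted protein that binds fibrillin-1 and latent TGF-beta binding protein, was at least 4.115-fold lower (adjusted p = 0.00662).

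Bmp1, the protease that cleaves the lysyl oxidase precursor, fell by 2.07 ± 0.27 (4.2-fold lower, adjusted p = 0.00786), and its other probe gave -3.50 (adjusted p = 0.00141). Efemp2, or fibulin-4, which binds lysyl oxidase and tropoelastin, fell by 1.65 ± 0.31 (3.129-fold lower, adjusted p = 0.0218) and stayed at levels of 3.96 to 4.76 in iHep, against 5.76 to 6.23 on the MEF arrays. Atp7a, the copper pump that supplies these enzymes, stood at 1.61 to 1.90 in iHep and 1.61 to 1.89 in MEF (-0.03 ± 0.20, 95% interval -0.55 to 0.50, adjusted p = 0.94), while its other probe gave 1.41 (adjusted p = 0.0784). Loxl4, the remaining family member, was at -1.47, -1.42 and -1.57 in the iHep types and -1.93, -1.63 and -1.57 on the MEF arrays (0.28 ± 0.20, interval -0.22 to 0.78, adjusted p = 0.352).

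The 4 genes that rose were Tnxb, Thsd4, Adamtsl4 and Efemp1. Tnxb, or tenascin-X, a spacer of collagen fibrils, rose by 4.08 ± 0.52 (16.91-fold higher, adjusted p = 0.00765), with levels of 0.36, -0.99 and -1.25 in iHep against -4.66, -4.68 and -4.82 in MEF. Its other probe gave 1.46 (adjusted p = 0.0345). With low levels in MEF and 2 probes that differ, the size of the Tnxb rise is uncertain. Thsd4, which promotes the assembly of fibrillin-1 into microfibrils, rose by 3.40 ± 0.44 (10.57-fold higher, adjusted p = 0.00784), and a second probe gave 3.33 (adjusted p = 0.0139). Adamtsl4, a fibrillin-binding protein of the eye's zonule, rose by 1.75 ± 0.31 (3.363-fold higher, adjusted p = 0.0176). Efemp1, or fibulin-3, rose by 1.72 ± 0.40 (adjusted p = 0.0382). Within the slide of MEF 1 and the iHep arrays none of the 25 was called higher and 3 were called lower, beside 3.93% and 4.79% of tested genes.

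**Figure D4:**
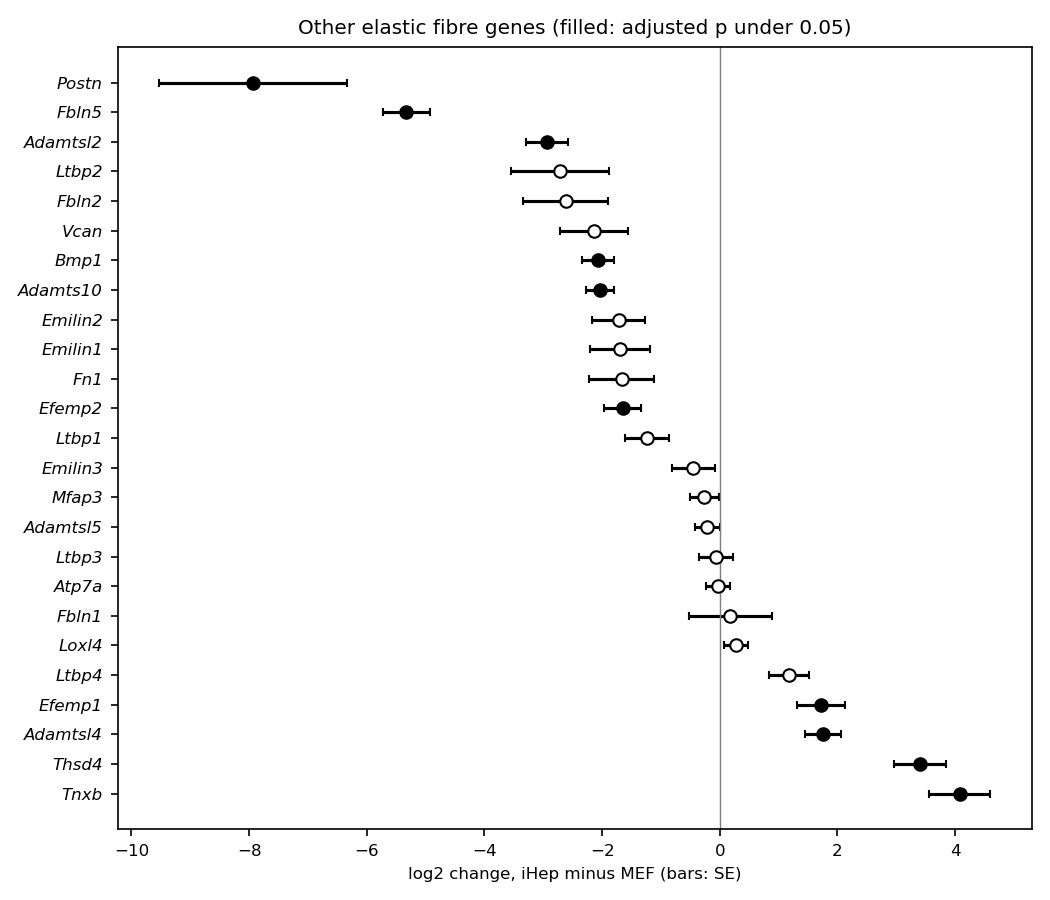
Log2 change, iHep minus MEF, with SE (horizontal axis) of 25 other genes of elastic fibre assembly; filled points have an adjusted p under 0.05. Postn is at -7.93, Tnxb at 4.08, and 15 genes are open.

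Against MEF, the hepatocyte array was lower for 18 of the 25 genes and higher for 1, beside 25.1% and 28.4% of tested genes. In iHep against hepatocyte 17 of the 25 were higher and 3 lower, beside 22.1% and 27.1%. The collagen substrates of lysyl oxidase and other cross-linking enzymes were mostly lower too: in iHep against MEF 8 of 10 fell and none rose, beside 13.2% lower and 10.1% higher over all tested genes, with a median change of -2.07. Col5a2 and Col3a1, fibril-forming collagens, fell by 5.37 ± 0.57 (adjusted p = 0.00478) and by 4.92 ± 1.22 (adjusted p = 0.0456). Tgm2, a transglutaminase (1.15 ± 0.48, adjusted p = 0.151), and Colgalt1, a collagen galactosyltransferase (-0.25 ± 0.18, adjusted p = 0.366), were the members of that list without a call.

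Over the 6 samples, the profiles of the 10 genes differed, as a description in which the 1 hepatocyte array weighs heavily. Lox and Loxl2 had a Pearson r of 0.98 and Mfap4 and Eln of 0.97, whereas Mfap4 and Lox had 0.39. The 3 tested genes outside the 10 with the profile most like Lox were NAP034039-1 (a name of the array only), Twist1, a mesenchymal transcription factor, and P3h4, a collagen-modifying partner protein, at 0.9997, 0.9996 and 0.9992, and 7.5% of tested genes exceeded 0.95. Most like Eln were Zdbf2, Zic1 and Mlc1, at 0.997, 0.9962 and 0.9957. Most like Mfap2 were 2610306M01Rik and 2 array entries without a current gene symbol, at 0.9978, 0.9973 and 0.9972. Above 0.95 lay 2.4% of tested genes for Eln and 1.9% for Mfap2.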

How the data were processed

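Per the file headers, scanner images were quantified by Agilent Feature Extraction 9.5.1.1. The deposited processed signal is a background-subtracted, detrended intensity on a linear scale with no scaling between arrays. The deposited files also carry mean and background intensity, used for 1 alternative, and each spot's flags, which take the values 0 and 1. The authors' deposited table of intensity values has 1 distribution shared by all columns (medians of 66.3 to 66.4), and no source used here says how it was made.

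Outlier spots were left out and spots of a probe averaged as log2 signal (41138 of 41174 probes). Each array was scaled to its 75th percentile. Genes were named from GRCm38.p6 by accession (24358 probes) or symbol (8714), with 7805 keeping the array's name and 261 unnamed; positions are the array's own (mm8), without exon annotation, which was not used here. The brightest probe stood for a gene. Genes well above background on every array of a group were tested with limma 3.58.1 in R 4.3.3, with all arrays fitted together, Benjamini-Hochberg adjusted p-values and a threshold of 0.05; second probes were tested in a fit of all 28911 probes that passed. The fit was tested on simulated data. No member was saturated. The number of arrays limits precision.

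The 10 genes and all lists were chosen with earlier results of these data known. Besides the 10 genes, the text names the 3 largest called changes each way of the assembly list with Loxl4, Fbln5, Efemp2, Bmp1 and Atp7a, the 2 largest each way of the other lists, and the 3 closest profiles to Mfap2, Eln and Lox; Efemp1, Tgm2 and Colgalt1 were named after their values were seen. Same-numbered MEF and iHep arrays did not deviate together (correlations of -0.02 to 0.03). With MEF 2 and MEF 3 nearly alike, these correlations cannot decide whether the arrays were paired.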

Additional observations from a re-analysis of the deposited data

How the results depend on the processing

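All 10 genes kept a negative change in iHep against MEF and in hepatocyte against MEF under each of the alternatives run, but normexp gave smaller sizes for the genes near background. In iHep against MEF 9 members were called; within slide 1 the count was 4 members, and leaving out a replicate gave 4 to 9. The call of Lox held under 7 of 15 alternatives and that of Loxl2 under none, while Mfap4, Eln, Fbn1 and Loxl1 were called under all 15. For iHep against MEF, the fit within slide 1 and the fit without MEF 2 and MEF 3 are the same comparison. They gave the same values and are counted separately among the 15. Leaving out a replicate gave 0 to 1 members lower in iHep against hepatocyte. Mfap5 in iHep against hepatocyte turned to -0.04 with normexp (adjusted p = 0.964), and the cause was not tested. In iHep against MEF 6 assembly genes were called lower, and the count was 13 with MEF 2 and MEF 3 as separate samples, 12 with those and the replicate block, 13 with slide as a random block, and 3 within slide 1; leaving out a replicate gave 3 to 7. The count called higher was 4, with 0 within slide 1, and leaving out a replicate gave 0 to 4. With MEF 2 and MEF 3 as separate samples, 4149 of all 19135 tested genes were called lower, beside 2535 with them averaged. That number was 3082 with the replicate block and 3883 with slide as a random block. No pairing of MEF numbers with iHep digits was detected, but the check cannot decide this. MEF 2 and MEF 3 differed by less than the measurement noise, so it could not tell their numbers apart. Over all genes, 4459 were called in iHep against MEF, 7027 probes with every probe on its own, 7307 with MEF 2 and MEF 3 as separate samples, 6861 with slide as a random block, 5449 with the replicate block, 1669 within slide 1, and 1642 to 4648 when a replicate was left out. Fits without a MEF sample have fewer degrees of freedom; other causes were not tested. The median of all genes in hepatocyte against MEF was 0.14, and -0.00 after quantile normalization.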

Other observations

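Enzymes able to degrade elastin were mostly lower or uncalled in iHep against MEF. Of 9 listed, 7 were tested, 4 fell and none rose, beside 13.2% lower and 10.1% higher over all tested genes, with a median log2 change of -2.87. Mmp2, a gelatinase, fell by 6.24 ± 1.15 (75.55-fold lower, adjusted p = 0.0203), at 0.12, -3.40 and -0.41 in the iHep types against 5.54, 4.47 and 4.50 on the MEF arrays. Mmp9, the other gelatinase, was not well above background in iHep and at least 3.354-fold lower (adjusted p = 0.0153). Mmp12 and Elane, a macrophage and a neutrophil elastase, were not tested because no group had them well above background on all its arrays.

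Of 8 ligands of the TGF-beta family that latent complexes or fibrillin can hold, 3 fell, 1 rose and 4 were not called in iHep against MEF, beside the same 13.2% lower and 10.1% higher over all tested genes. Tgfb3 fell by 4.92 ± 0.43 (30.24-fold lower, adjusted p = 0.00296), with 1.29, 1.58 and 0.27 in the iHep types against 6.06, 5.88 and 5.86 on the MEF arrays. Bmp5 was at least 2.099-fold lower (adjusted p = 0.0336). Bmp7, whose propeptide binds fibrillin, rose by 2.04 ± 0.31 (4.102-fold higher, adjusted p = 0.0119), with -0.75, -0.06 and 0.10 in iHep against -2.32, -2.20 and -2.26 in MEF.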
